A study of Mus musculus with 6 samples.

Results

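The CXC chemokine ligands are small secreted proteins, named for a pair of cysteines near the amino terminus that are separated by 1 residue, and 10 of their genes were followed here in the lining of the mouse stomach. They are Cxcl1, Cxcl2, Cxcl5, Cxcl9, Cxcl10, Cxcl12, Cxcl13, Cxcl14, Cxcl15 and Cxcl16, taken as every probe outside the array's controls that carried 1 of these gene names. This gave 12 probes for 10 of the 31689 genes and transcripts on the array, with 2 probes each for Cxcl9 and Cxcl12. In 6 of the 10 genes at least 3 of the 6 arrays were well above background, the condition for a test.

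RNA came from C57BL/6J mice that were wild type or A4gnt null, aged 5, 10 or 50 weeks, with 1 mouse and 1 one-colour Agilent array for each genotype and age. The mucosa had been peeled off the muscle of the glandular stomach. A4gnt encodes the glycosyltransferase that adds a terminal α1,4-linked N-acetylglucosamine to the mucin of gland mucous cells, and the comparison addresses what changes in the mucosa without that sugar. The labels name no other allele and no treatment.

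Values are the scanner software's background-corrected signals and, for comparisons, log2 levels relative to the 75th percentile of each array. The arrays were alike in brightness, with 54.8% to 59.2% of spots well above background and a 75th percentile of 253.3 to 402.3 units. The lowest signal called well above background was 10.1 to 11.6 units, and many of the chemokine signals lie near it. A4gnt itself was read at 165.3, 325.4 and 264.0 units in the wild-type mice of 5, 10 and 50 weeks and was not well above background in any null mouse. Its bound was at least 15.3-fold lower at 5 weeks, 25.6-fold at 10 weeks and 36.3-fold at 50 weeks, so the labels match the targeted gene. All 10 genes on a list of gastric mucosa markers were well above background on all 6 arrays. The 3 wild-type arrays lay on 1 slide and the 3 null arrays on another, so genotype and slide cannot be told apart in anything below, and the number of arrays limits the precision. No gene on the array passed the test of genotype, so every difference below is a size with its error and not a call.

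Chemokines of this family set up gradients that draw white blood cells through G protein-coupled receptors. Those with a Glu-Leu-Arg motif before the cysteines (Cxcl1, Cxcl2, Cxcl5 and Cxcl15 here) act mainly on Cxcr2 and attract neutrophils, while Cxcl9 and Cxcl10 are induced by interferons and attract T cells and natural killer cells through Cxcr3. Cxcl12 and Cxcl13 are largely homeostatic and work through Cxcr4 and Cxcr5, Cxcl14 is made by many epithelia, and Cxcl16 is made as a membrane-anchored protein that binds Cxcr6. In the stomach, the neutrophil attractants are known as products of inflamed epithelium, where the transcription factor NF-kB drives them.

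Promoters are shown for the 4 members that held a match to the motifs named below. RefSeq entries (GRCm38.p6) matched 8 of the 10 members, all but Cxcl5 and Cxcl16. The runs below are the 250 bases before the annotated start, read 5′ to 3′ on the strand of the gene, with matches to the motifs in capitals. The motifs searched on both strands were an NF-kB form, GGGANNTTCC, an interferon-stimulated response element (ISRE), GAAANNGAAA, and a gamma-activated site (GAS), TTCNNNGAA.
Cxcl1 promoter, chr5:90890995-90891244, forward strand: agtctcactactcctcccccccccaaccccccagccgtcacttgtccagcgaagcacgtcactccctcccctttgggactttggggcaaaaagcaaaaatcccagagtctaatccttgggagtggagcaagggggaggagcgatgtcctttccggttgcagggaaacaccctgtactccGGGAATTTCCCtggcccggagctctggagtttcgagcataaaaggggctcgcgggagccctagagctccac
Cxcl2 promoter, chr5:90903649-90903898, forward strand: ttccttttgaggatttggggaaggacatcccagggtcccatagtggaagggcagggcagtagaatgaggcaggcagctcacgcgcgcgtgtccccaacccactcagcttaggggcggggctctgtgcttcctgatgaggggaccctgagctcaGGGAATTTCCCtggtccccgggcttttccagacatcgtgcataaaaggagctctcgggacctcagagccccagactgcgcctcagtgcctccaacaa
Cxcl10 promoter, chr5:92348890-92349139, reverse strand: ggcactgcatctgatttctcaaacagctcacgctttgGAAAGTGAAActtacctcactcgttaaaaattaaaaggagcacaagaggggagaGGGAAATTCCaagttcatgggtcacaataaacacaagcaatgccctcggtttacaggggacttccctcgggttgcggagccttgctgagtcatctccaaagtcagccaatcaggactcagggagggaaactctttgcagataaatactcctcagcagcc
Cxcl14 promoter, chr13:56296552-56296801, reverse strand: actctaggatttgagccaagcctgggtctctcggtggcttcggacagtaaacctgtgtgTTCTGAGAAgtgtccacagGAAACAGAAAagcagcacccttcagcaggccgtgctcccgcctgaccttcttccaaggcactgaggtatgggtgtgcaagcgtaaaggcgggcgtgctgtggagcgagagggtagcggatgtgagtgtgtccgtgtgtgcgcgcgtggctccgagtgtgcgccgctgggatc

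Cxcl1 and Cxcl2 carry the same 11 bases, GGGAATTTCCC, from 71 to 61 bases before the start in Cxcl1 and from 97 to 87 bases before it in Cxcl2. That stretch is a match on both strands, the matches overlapping, and is found in 14 of 32841 promoters of this length (0.0426%). The NF-kB form as a whole matched 1.21% of promoters. Cxcl10 holds GGGAAATTCC from 159 to 150 bases before the start, and GAAAGTGAAA, an ISRE match, from 213 to 204. Cxcl14 had no NF-kB match in the window and held GAAACAGAAA, an ISRE match, from 172 to 163 bases before the start and TTCTGAGAA, a GAS match, from 191 to 183. The ISRE form matched 2.98% of promoters and the GAS form 7.02%. The promoters of Cxcl9, Cxcl12, Cxcl13 and Cxcl15 held no match to these 3 motifs in the window. A match is a description of letters and was not tested for function here.

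The neutrophil attractant Cxcl1 was bright in every null stomach and dim in wild type except at 10 weeks. Its probe (chromosome 5, 91321845 to 91321904 in mm9) read 72.8, 138.5 and 189.6 units in the null mice of 5, 10 and 50 weeks. In the wild-type mice it read 2.84, 35.7 and 4.08 units, and the values at 5 and 50 weeks were not well above background. All 3 null arrays thus lay above all 3 wild-type arrays, and the nearest pair (null at 5 weeks and wild type at 10 weeks) were 1.53 apart on the log2 scale. At 10 weeks, where both arrays measured it, Cxcl1 was 4.24-fold higher in the null mouse. Where the wild-type signal could not be told from background, a fold is a bound, set against the lowest signal called above background on that array. By that measure the 5-week null mouse was at least 6.41-fold higher, and the 50-week one at least 12.6-fold, each 1 mouse against 1 mouse. Over the 3 ages the measured log2 difference was 3.95 ± 0.66 (SE of the limma fit, 3 mice per genotype), with a 95% interval of 2.13 to 5.77 and an adjusted p of 0.133. Its null arrays alone met the filter for a test, and 2 of its 3 wild-type values are background readings. The fitted size, interval and p thus rest in part on background. In bulk mucosa more cells of a type and more RNA per cell cannot be told apart.

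Cxcl5, a neutrophil attractant made by epithelial cells, was seen in null mice alone among these 6 arrays. Its probe (chromosome 5, 91190490 to 91190549) read 14.9, 124.6 and 215.3 units in the null mice of 5, 10 and 50 weeks. The wild-type readings of 2.35, 2.98 and 2.18 units were all not well above background. The null signal at 5 weeks was just past the limit of detection, and the null mouse of 50 weeks stood 9.12-fold above that of 5 weeks. Against wild type the bound was 1.31-fold at 5 weeks, 12.8-fold at 10 weeks and 14.3-fold at 50 weeks, and at least 6.20-fold over the 3 ages. Cxcl5 entered the fit through its null arrays alone, so its fitted difference and p rest on background readings and are not given. Among the null mice Cxcl5 spanned a wider range than Cxcl1, whose level at 50 weeks was 1.64-fold that at 5 weeks.

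Cxcl2, another Cxcr2 ligand, stayed near the limit of detection. It read 11.3, 12.7 and 14.4 units in the null mice of 5, 10 and 50 weeks, of which only the last was well above background, and 5.87, 7.48 and 5.48 units in wild type. The 3 null readings lay above the 3 wild-type ones, with measured differences of 0.96, 0.90 and 0.93 at the 3 ages, but most of these are below background and no fold is given. Cxcl15, known as lungkine for its place in the lung, read 2.27 to 2.79 units and was not well above background on any array. These genes sit in 1 cluster on chromosome 5, but the sizes of difference of Cxcl2 and Cxcl15 are not measured and cannot be set beside those of Cxcl1 and Cxcl5. From the Cxcl5 probe, the Cxcl15 probe lies 41.5 kb away, the Cxcl1 probe 131.4 kb and the Cxcl2 probe 144.0 kb.

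**Figure D1:**
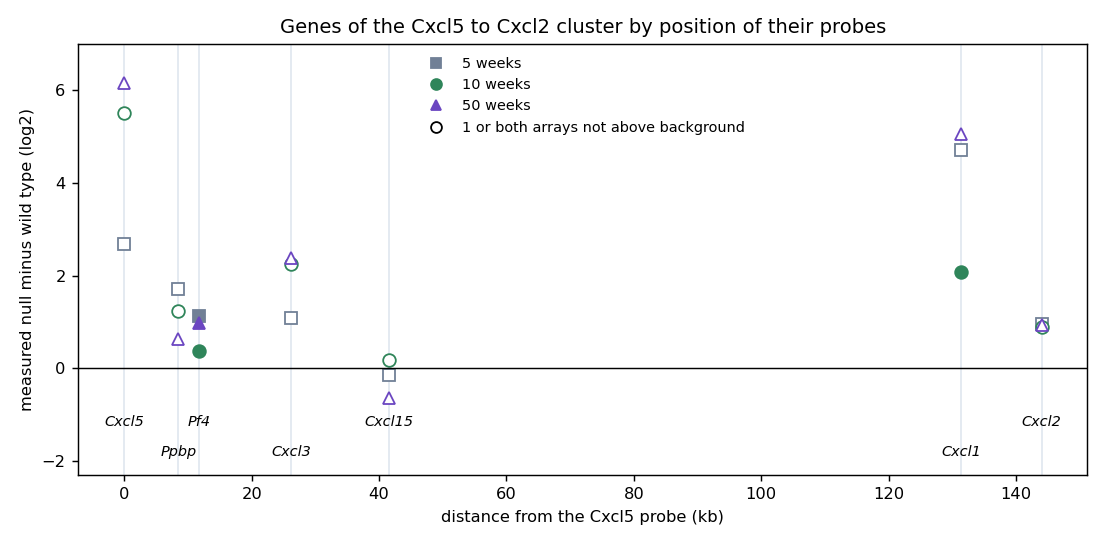
Measured log2 difference, null minus wild type, at 5, 10 and 50 weeks (squares, circles, triangles; 1 array against 1 array) against distance in kb from the Cxcl5 probe, open symbols marking genes where 1 or both arrays were not well above background. Among the 7 genes, the measured values past 4 are those of Cxcl5 (at 10 and 50 weeks) and Cxcl1 (at 5 and 50 weeks), 131.4 kb apart. All of these rest on wild-type background readings. As bounds they were 3.67 and 3.84 for Cxcl5 and 2.68 and 3.65 for Cxcl1, none past 4. Open symbols rest on background readings, as for Cxcl15 at all ages, Cxcl5 in wild type and Cxcl1 in wild type at 5 and 50 weeks.

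The other ligand genes of that cluster, which are not members, fill in the picture. Pf4, platelet factor 4, read 333.8, 395.1 and 254.6 units in null and 154.6, 332.2 and 93.8 units in wild type, a log2 difference of 0.83 ± 0.19 (limma adjusted p = 0.153) with groups that overlapped. Cxcl3, a close relative of Cxcl1 and Cxcl2, was well above background only in the null mouse of 50 weeks, at 23.1 units. Ppbp, the precursor of a platelet Cxcr2 ligand, was so only in the null mouse of 10 weeks, at 16.2 units. Elsewhere, Cxcl17, a mucosal chemokine, was bright on all arrays and differed by -0.26 ± 0.14 (limma adjusted p = 0.324). Cxcl11, another Cxcr3 ligand, has 2 probes, of which the brighter shares a stretch of 20 bases with probes of 7 other genes and the other with 0. That other probe read 717, 950 and 1028 units in the null mice of 5, 10 and 50 weeks and 1275, 951 and 858 units in wild type, log2 differences of -0.81, 0.13 and -0.21. No member's probe shares such a stretch with another gene's.

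The interferon-induced ligand Cxcl10 went the other way from Cxcl1 at 5 and 10 weeks. Its probe (chromosome 5, 92775781 to 92775840) read 91.1, 44.3 and 29.0 units in the wild-type mice of 5, 10 and 50 weeks. In the null mice it read 35.3, 8.01 and 34.5 units, the value at 10 weeks being not well above background. The highest array was the wild-type mouse of 5 weeks and the lowest the null mouse of 10 weeks, and the remaining 4 arrays overlapped within 0.70 on the log2 scale. Cxcl10 was 2.54-fold lower in null at 5 weeks and, as a bound, at least 3.49-fold lower at 10 weeks, while the log2 difference at 50 weeks was -0.22. Over the ages it was -1.30 ± 0.44 (limma, 95% interval -2.51 to -0.09, unadjusted p = 0.0401, adjusted p = 0.197). Cxcl9, its partner at Cxcr3, was read by 2 probes that disagreed. The brighter one stayed below background throughout, at 6.68 to 11.2 units, whereas the other was well above background in the null mouse of 50 weeks alone, at 12.3 units, and read 2.18 to 2.58 units elsewhere.

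Cxcl14, an epithelial chemokine, was the only member that was well above background on all 6 arrays with the genotypes apart. Its probe (chromosome 13, 56390078 to 56390137) read 282.0, 664.2 and 650.3 units in the null mice of 5, 10 and 50 weeks and 54.8, 339.7 and 153.6 units in wild type. Every null array was above every wild-type array once scaled, though the null mouse of 5 weeks exceeded the wild-type mouse of 10 weeks by no more than 0.23 on the log2 scale. The null mouse was 5.22-fold higher at 5 weeks, 2.14-fold at 10 weeks and 3.05-fold at 50 weeks. The log2 difference over the ages was 1.70 ± 0.28 (limma, 95% interval 0.92 to 2.47, adjusted p = 0.133), a fold of 3.24. With the normexp background correction, which compresses low signals, the difference was 1.32 for Cxcl14 and 1.23 for Cxcl1, and both passed at limma adjusted p-values of 0.0336 and 0.0305.

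Cxcl12, a stromal chemokine that retains and guides cells bearing Cxcr4, gave no settled direction. The probe annotated to transcript variant 3 (chromosome 6, 117131227 to 117131286) read 114.2, 148.5 and 76.4 units in the null mice of 5, 10 and 50 weeks. In wild type it read 76.5, 360.7 and 106.1 units, so the wild-type mouse of 10 weeks stood above the rest and the other arrays overlapped. The null mouse was 1.51-fold higher at 5 weeks, 2.22-fold lower at 10 weeks and 1.93-fold lower at 50 weeks, for a log2 difference of -0.50 ± 0.40 (limma adjusted p = 0.480). The probe annotated to transcript variant 1 (chromosome 6, 117125026 to 117125085) read 19.6, 22.7 and 23.7 units in null and 4.45, 28.9 and 31.0 units in wild type, the first of these not well above background. Used in place of the former, it turned the mean difference to 0.36 (limma adjusted p = 0.757). With either probe the null mouse was higher at 5 weeks and lower at 10 and 50 weeks.

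**Figure D2:**
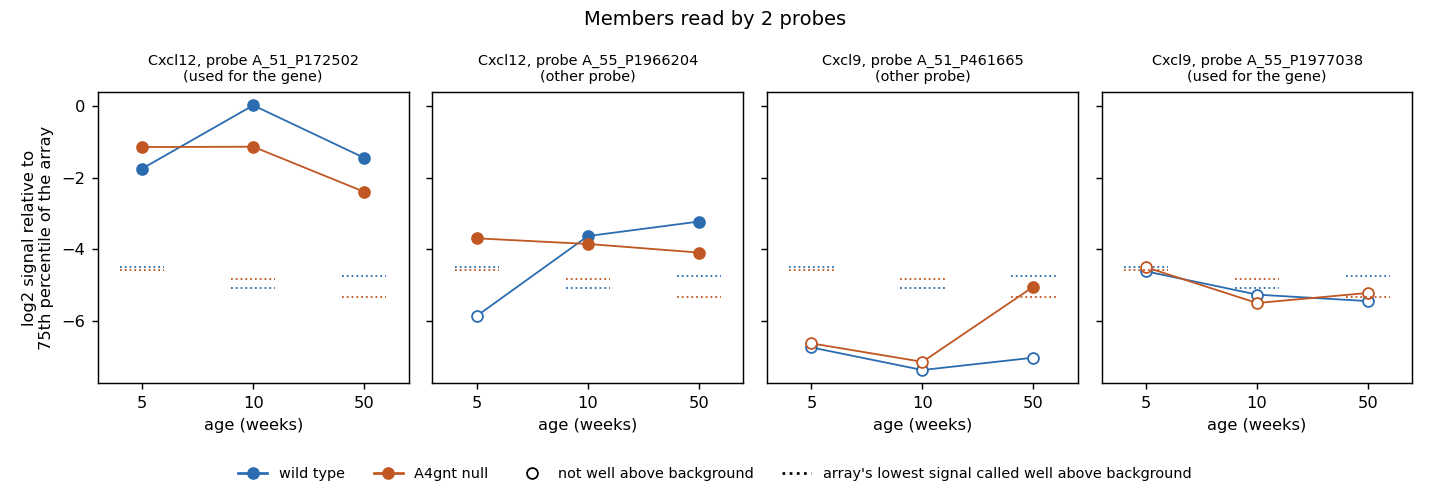
Log2 signal relative to the array's 75th percentile for both probes of Cxcl12 and both probes of Cxcl9 by age in weeks, blue for wild type and orange for A4gnt null, 1 mouse per point, with open points not well above background and dotted lines at the lowest signal called above background on each array. One Cxcl12 probe is open in the wild-type mouse of 5 weeks, and 1 Cxcl9 probe is filled in the null mouse of 50 weeks alone.

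Cxcl16, which exists as an adhesion molecule on the cell surface and as a shed attractant, showed no difference between genotypes beyond its error. Its probe (chromosome 11, 70267780 to 70267839) read 225.8, 133.2 and 170.2 units in the null mice of 5, 10 and 50 weeks and 153.2, 265.1 and 117.7 units in wild type. The groups overlapped, and the log2 difference was -0.07 ± 0.31 (limma, 95% interval -0.94 to 0.79, adjusted p = 0.898). It turned to 0.053 when arrays were scaled to their medians and to 0.32 without the arrays of 10 weeks. Cxcl13, which directs B cells into follicles, was well above background in the wild-type mouse of 5 weeks alone, at 40.2 units. It read 6.06 to 10.9 units elsewhere, so that at 5 weeks the null mouse was at least 3.72-fold lower.

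**Figure D3:**
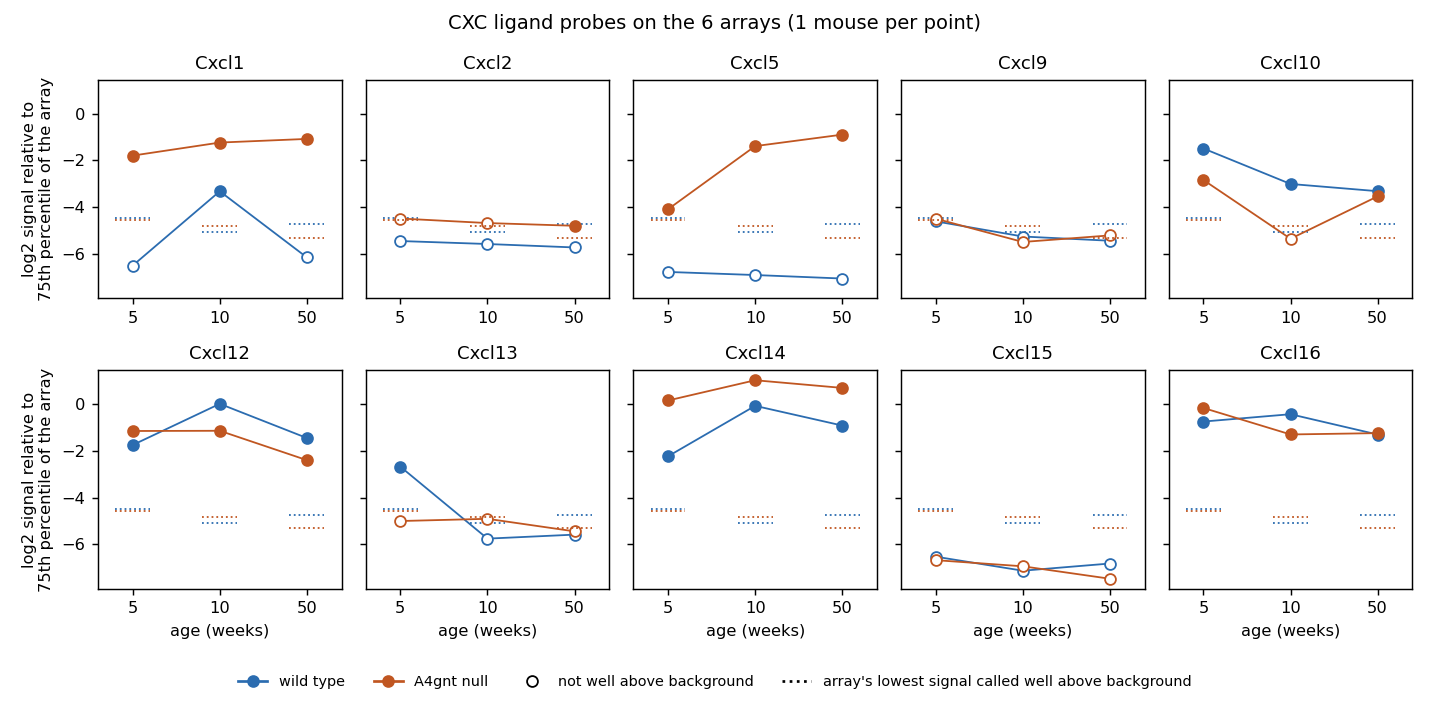
Log2 signal relative to the array's 75th percentile for the 10 ligands (the probe used for each gene) against age in weeks, blue for wild type and orange for A4gnt null, 1 mouse per point, with open points not well above background and dotted lines at the lowest signal called above background on each array. Null points lie above all wild-type points for Cxcl1, Cxcl2, Cxcl5 and Cxcl14, and Cxcl15 stays below the dotted lines on all arrays. Of all genes tested, 12.6% were separated in that direction. Cxcl2 was well above background on 1 array alone and was not tested. Cxcl5 passed the filter only through its null arrays, so its separation was fixed by that. Most wild-type readings of Cxcl1 were also not well above background.

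As a family, the ligands differed among themselves in direction. Of the 6 tested, 0 passed the limma test of genotype at an adjusted p of 0.05 in either direction, as for the array at large (0% of 17858 genes higher and 0% lower, or 99 and 92 genes with the normexp correction). Cxcl5 is set aside in what follows, since it passed the filter on low signals only through the group where it is high and its separation was fixed by that. Of the other 5, Cxcl1 and Cxcl14 were higher and Cxcl10 was lower at an unadjusted p under 0.05, where 11.2% of all genes were higher and 12.5% lower. In Cxcl1 and Cxcl14 every null array lay above every wild-type array, as in 12.6% of genes tested, and in 0 members did every null array lie below, as in 11.2%. Some chemokines are known to have been picked by the study on these same mice, so these counts are a description and not independent evidence. Over all 10 members, background readings included, the median log2 difference was -0.02, against -0.145 over all 31689 genes and transcripts taken the same way. The 4 genes that were not tested (Cxcl2, Cxcl9, Cxcl13 and Cxcl15) were above background on 1 array at most.

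At single ages the members past 2-fold were as follows, bounds included. At 5 weeks Cxcl1 and Cxcl14 were higher and Cxcl10 and Cxcl13 lower, of 7 members measured on at least 1 array, while 4.66% of genes were higher by that much and 5.97% lower. At 10 weeks Cxcl1, Cxcl5 and Cxcl14 were higher and Cxcl10 and Cxcl12 lower, of 6, against 5.18% and 6.5% of genes. At 50 weeks Cxcl1, Cxcl5 and Cxcl14 were higher and 0 were lower, of 7, against 2.39% and 5.52%. Cxcl1 and Cxcl14 were past 2-fold at all 3 ages, and Cxcl10 at the first 2. These are counts of 1 array against 1 array and carry no p.

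**Figure D4:**
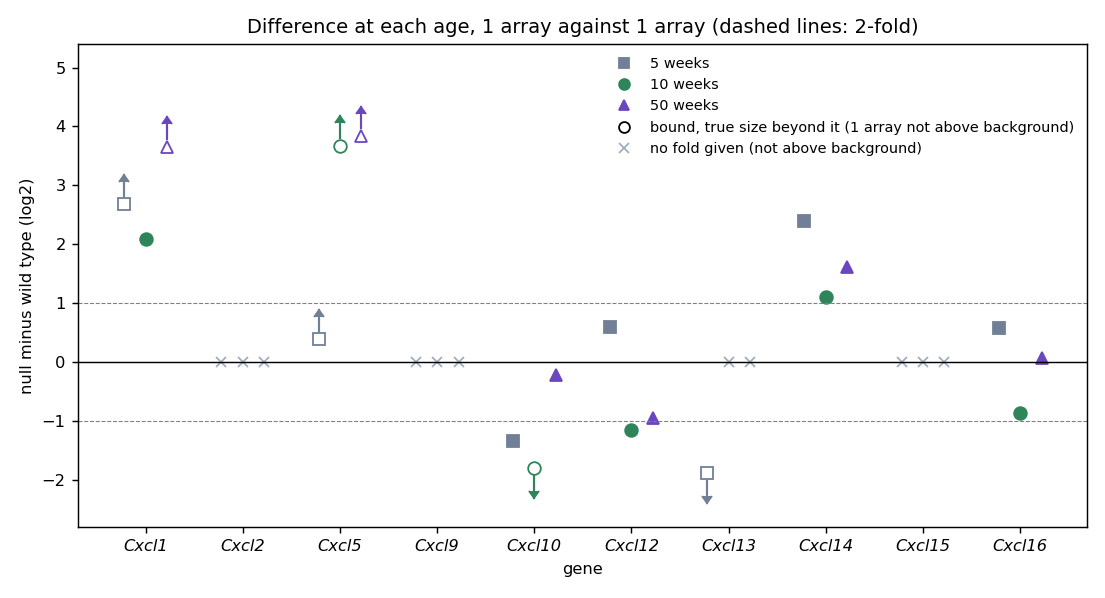
Log2 difference, null minus wild type, for each ligand at 5, 10 and 50 weeks (1 array against 1 array), filled where both arrays were well above background, open with an arrow where the value is a bound, crossed where no fold is given. Cxcl1 and Cxcl14 lie above the dashed line of 2-fold at all ages, Cxcl5 at 10 and 50 weeks, and Cxcl10 lies below the lower dashed line at 5 and 10 weeks.

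None of the 6 tested ligands passed the threshold for age. Over both genotypes the limma F test of age gave adjusted p-values of 0.354 for Cxcl14 to 0.507 for Cxcl16 among the 5 ligands other than Cxcl5, and 2 of 17858 genes passed (0.0112%). Cxcl14 was higher at 10 than at 5 weeks by 1.51 ± 0.35 (limma adjusted p = 0.388), and by 4.46-fold between the wild-type mice and 1.82-fold between the null mice. Cxcl10 was lower at 10 than at 5 weeks by -2.01 ± 0.54 (limma adjusted p = 0.388), the wild-type mouse of 50 weeks being 3.54-fold below that of 5 weeks. A difference between genotypes in the slope on log2 age passed for 0 members and 0% of genes. Cxcl5 is not measured in wild type at any age, so its slopes cannot be compared.

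Among the receptors, Cxcr1 was lower and Cxcr4 higher in all null mice. On none of the 6 arrays were Cxcr2, Cxcr3 or Cxcr5, the main receptors of the neutrophil attractants, of Cxcl9 and Cxcl10 and of Cxcl13, well above background. Cxcr1, a receptor of neutrophils, read 83.7, 80.3 and 117.3 units in wild type and 39.6, 25.4 and 43.5 units in the null mice of 5, 10 and 50 weeks. All null arrays of Cxcr1 lay below all wild-type ones, a log2 difference of -1.50 ± 0.20 (limma adjusted p = 0.119). The receptors of Cxcl12 were higher in null. Cxcr4 read 22.2, 48.2 and 47.5 units in null and 6.77, 18.7 and 13.1 units in wild type, the first of these not well above background. Its log2 difference was 1.54 ± 0.13 (limma, unadjusted p = 2.4e-04, adjusted p = 0.0967), with every null array above every wild-type array. Ackr3, a scavenging receptor for Cxcl12, differed by 1.66 ± 0.39 (limma adjusted p = 0.153) with overlapping groups, and was not well above background in wild type at 5 and 50 weeks. Cxcr6 differed by 0.20 ± 0.16 and Ackr1, which holds chemokines on venules, by 0.33 ± 0.16. Of the 8 receptor genes, 5 were tested, with 2 higher and 1 lower at an unadjusted p under 0.05 (11.2% and 12.5% of all genes) and 0 past the adjusted threshold.

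**Figure D5:**
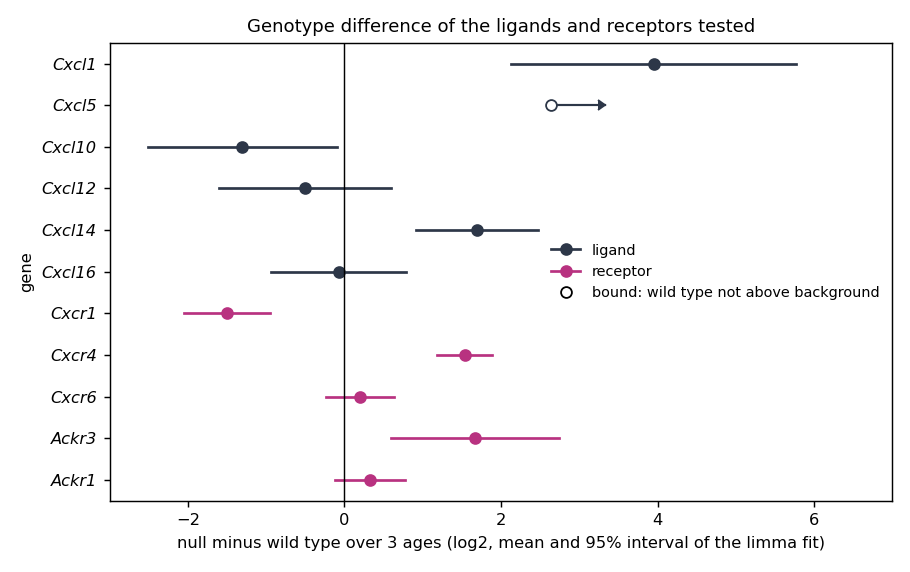
Log2 difference, null minus wild type over the 3 ages, for the 6 ligands (dark) and 5 receptors (pink) that were tested, as the mean and 95% interval of the limma fit with age as a factor, or, for Cxcl5, as an open bound with an arrow. The intervals of Cxcl1, Cxcl14, Cxcr4 and Ackr3 lie above 0 and those of Cxcl10 and Cxcr1 below it, while no adjusted p passed 0.05. Of these, Cxcl1 and Ackr3 rest in part on wild-type background readings at 5 and 50 weeks. Cxcr4 does so at 5 weeks, and Cxcl10 on a null background reading at 10 weeks.

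Genes upstream of the ligands were read alongside. Of 20 NF-kB inducers and feedback genes, 12 were tested, with 1 higher and 1 lower at an unadjusted p under 0.05 (11.2% and 12.5% of all genes) and a median log2 difference of -0.03. The higher one was Il1b, the cytokine interleukin 1β, which read 115.2, 130.1 and 236.0 units in null and 15.0, 68.2 and 10.3 units in wild type, the last not well above background. Its difference was 2.69 ± 0.62 (limma adjusted p = 0.152), and every null array lay above every wild-type array, as for Cxcl1. The lower one was the superoxide dismutase Sod2, at -0.45 ± 0.13 (limma adjusted p = 0.173). The inhibitor relative Nfkbiz, at -0.53 ± 0.33, and the lymphotoxin Ltb, at 0.36 ± 0.22, had overlapping groups.

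The genes that share inducers with Cxcl9 and Cxcl10 differed by class. Of 15 genes of the type I interferon response, 14 were tested, 12 of them lower and 0 higher in null at an unadjusted p under 0.05, with a median of -1.61, where 12.5% of all genes were lower, 11.2% were higher and the median was -0.02. Oas2, an enzyme that senses double-stranded RNA, differed by -3.17 ± 0.32 (limma adjusted p = 0.104). Isg15, a ubiquitin-like protein, read 1832, 1136 and 456.9 units in wild type and 378.2, 207.6 and 324.3 units in null, highest in the wild-type mouse of 5 weeks as Cxcl10 was. At 50 weeks only Irf7, Oas2 and Usp18 of this list were at least 2-fold lower in null, at log2 differences of -1.37, -2.36 and -1.08. At that age Ifit3 was at -0.20, Bst2 at -0.13, Mx1 at 0.05 and Rsad2 at 0.48. In 7 of the 14 every null array lay below every wild-type array, as in 11.2% of all genes, though for Ifit1 and Mx2 this rests partly on background readings. Ifit1 differed by -2.35 ± 0.84 and Oasl2 by -1.76 ± 0.40 (limma adjusted p = 0.207 and 0.151). Ifit1 was well above background on 3 arrays only, in wild type at 5 and 10 weeks and in null at 50 weeks. As bounds it was at least 5.34-fold lower in null at 5 weeks and 2.17-fold at 10 weeks, and its measured difference at 50 weeks was -0.006. Of 19 genes of the interferon-γ axis, 16 were tested, with 2 higher and 1 lower, near the 11.2% and 12.5% of all genes, and a median of -0.09. Some of them turned between ages: the GTPase gene Gbp2 was 3.05-fold lower in the null mouse at 5 weeks and higher at 50 weeks, and Igtp 3.33-fold lower and 2.54-fold higher. The higher ones were the signalling inhibitor Socs1, at 1.11 ± 0.29 (limma adjusted p = 0.167), and the transcription factor Irf8, which read 166.8, 392.9 and 315.6 units in null and 132.8, 131.0 and 96.7 units in wild type (limma adjusted p = 0.169). Ciita, the master regulator of MHC class II genes, was the lower one, at -0.42 ± 0.15 (limma adjusted p = 0.210), and Ifng itself was above background on 0 arrays.

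Markers of the cells that make or answer these ligands also differed in size between genotypes, and their part in the ligand differences was not tested. Of 12 neutrophil markers 8 were tested, with 3 higher and 0 lower at an unadjusted p under 0.05 (11.2% and 12.5% of all genes, also for the lists that follow) and a median of 0.96. S100a8 differed by 2.30 ± 0.79, Ltf by 2.26 ± 0.95, S100a9 by 1.57 ± 0.55 and Retnlg by 1.41 ± 0.31 (limma adjusted p from 0.147 to 0.247), while Camp was at -0.39 ± 0.16, Elane at -0.31 ± 0.15 and Csf3r at -0.27 ± 0.22. For Camp every null array lay below every wild-type array, as in 11.2% of all genes tested. Its null values at 5 and 10 weeks were not well above background, so this rests in part on background readings. Mpo, Ngp and Mmp9 were above background on 0 arrays. The summed signal of the list, in multiples of the array's 75th percentile, was 41.8 to 70.3 in wild type and 43.0 to 49.3 in null, but the Csf3r probe alone made up 78.4% to 95.3% of it. The sums of the lists that follow also add unlike probes and follow their brightest ones, such as Itgam (54.6% to 65.4% of the macrophage sum), Cd4 (53.7% to 74.0% of the T cell sum) and Kdr (77.0% to 89.3% of the endothelial sum). The markers did not share a time course. S100a8 was at its highest in the null mouse of 5 weeks, at 402.0 units. Its lowest null level was in that of 50 weeks, at 74.0 units, while Cxcl5 and Cxcl1 were highest at 50 weeks. S100a9 and Retnlg, like S100a8, differed most between the youngest mice, by log2 differences of 3.08 and 2.21. Ltf instead differed most between the oldest mice, by 4.86. Its difference was 0.26 between the 10-week mice, and the youngest pair gave a bound of 0.74. Whether any of these courses bears on the ligands was not tested.

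Of 10 macrophage markers 8 were tested, with 4 higher and 0 lower and a median of 0.42. They include Cd14, at 1.07 ± 0.30, Mpeg1, at 0.93 ± 0.16, and Aif1, at 0.86 ± 0.18, while Cd68 was above background on 0 arrays. Adgre1, Csf1r and Itgam were under 2-fold apart at all ages. At 5, 10 and 50 weeks their log2 differences were -0.07, 0.49 and 0.01 for Adgre1 and 0.31, -0.10 and 0.21 for Csf1r. Those of Itgam were -0.14, 0.10 and -0.21. The summed signal was 21.1 to 29.7 in wild type and 21.3 to 31.0 in null. Of 10 fibroblast markers 9 were tested, with 6 higher and 0 lower and a median of 0.72. They include Pdgfra, at 1.04 ± 0.24, Vim, at 0.97 ± 0.17, and Col3a1, at 0.88 ± 0.20, and the summed signal was 13.7 to 21.8 in wild type and 21.4 to 28.3 in null. Dcn was at -0.60, 0.08 and 0.56 at 5, 10 and 50 weeks. Lum was at 1.11, 1.36 and -1.17, and Thy1 at 1.33, 1.22 and -0.21. Fap was well above background in the wild-type mouse of 5 weeks alone.

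Lymphocyte markers were read unevenly. Of 11 T cell markers 6 were tested, with 0 higher and 1 lower (Zap70, a kinase of the T cell receptor, at -1.88 ± 0.23) and a median of -0.25. Zap70 was not well above background in the null mice of 10 and 50 weeks, so its fitted size rests in part on background readings. As log2 bounds its differences at those ages were -1.72 and -1.15. Cd3e, Cd4 and Lck were above background on all 6 arrays and differed by 0.04 ± 0.15, -0.53 ± 0.21 and 0.45 ± 0.17, whereas Cd3d, Cd8a, Cd8b1 and Cd2 were above it on 0, and the summed signal was 10.66 to 15.2 in wild type and 8.10 to 15.2 in null. Of 12 B cell and follicle markers 6 were tested, with 1 higher (Jchain, at 0.75 ± 0.15) and 1 lower (Cr2, at -0.68 ± 0.13). Cd79b, a part of the B cell receptor, was above background on all 6 arrays, at 45.7, 16.6 and 16.0 units in the wild-type mice of 5, 10 and 50 weeks and 26.2, 31.7 and 30.7 units in null. It was thus highest in the wild-type mouse of 5 weeks, the one in which Cxcl13 was seen, while Cd79a, Ms4a1 and Pax5 were above background on 0 arrays.

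Of 8 epithelial markers all were tested, with 2 higher and 0 lower and a median of 0.15. Those were Cldn7, a tight junction protein, at 1.98 ± 0.16, and Epcam, at 0.77 ± 0.14 (limma adjusted p = 0.0967 and 0.137). Of the 10 gastric mucosa markers 2 were higher, the gland mucin Muc6 at 0.92 ± 0.11 and Tff2 at 0.83 ± 0.24. The 4 lower ones were Cblif (intrinsic factor), the parietal cell pump genes Atp4a, at -1.33 ± 0.33, and Atp4b, at -0.79 ± 0.23, and the pepsinogen gene Pgc, at -0.85 ± 0.20. Signals of tissue from outside the mucosa varied between mice, in part along with genotype, and their part in the ligand differences was not tested. The summed signal of smooth muscle genes was 12.0 to 65.8 in wild type and 16.5 to 56.2 in null, that of pancreas genes 92.7 to 438.4 and 21.7 to 361.5, and that of liver and fat genes 28.7 to 67.7 and 19.4 to 54.2. Squamous forestomach genes were at 9.44 or more in wild type and 8.11 or less in null, and endothelial genes at 24.0 to 30.0 and 17.2 to 31.2. The Trp63 probe made up 56.8% to 82.5% of the squamous sum. Krt5 was 20.8-fold lower in null at 10 weeks and 22.7-fold at 50 weeks, and Krt14 at least 6.03-fold and 10.8-fold. Krt13 and Trp63 were under 2-fold apart at all ages, as was Krt5 at 5 weeks. Alb was 80.4-fold and 21.3-fold lower in null at 10 and 50 weeks but 1.42-fold higher at 5 weeks. Cpa1 was 111.9-fold lower at 50 weeks and 2.71-fold at 5 weeks.

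For each tested ligand the genes with the most similar pattern were found by the Pearson correlation of log2 levels over the 6 arrays, among 17857 other genes. All share the same 6 arrays and the same division by genotype, so the values describe likeness and no p is given. For Cxcl1 they were Mmp3, a matrix metalloproteinase (r = 0.993), Il11, an interleukin 6 family cytokine (r = 0.993), and Tapbpl (r = 0.990). For Cxcl5, whose wild-type values are background readings, they were Gm6711 (r = 0.996), Usp43 (r = 0.992) and C430042M11Rik (r = 0.989). For Cxcl14 they were Pfdn4 (r = 0.998), Gpkow (r = 0.996) and Ecm1 (r = 0.992).

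For Cxcl10 the most alike were Chat (r = 0.996), Hint2 (r = 0.992) and Ppp2r5a (r = 0.991), and none of the 15 type I interferon genes was among these 3. For Cxcl12 they were Eme2 (r = 0.997), Tceal9 (r = 0.987) and Smim10l2a (r = 0.987), and for Cxcl16 Arhgef3 (r = 0.993), Tmem243 (r = 0.990) and LOC100046168 (r = 0.990). Between the members, Cxcl1 ran with Cxcl14 (r = 0.935) and Cxcl5 (r = 0.855), and Cxcl10 ran against Cxcl14 (r = -0.830). The r of Cxcl12 and of Cxcl16 with the other tested members stayed between -0.454 and 0.536.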

How the data were processed

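Per the labels, the RNA of each mouse was Cy3-labelled (Quick Amp kit). Per the file headers, spot intensity came from Agilent Feature Extraction, version 10.7.1.1, with background subtracted by the software, and probe positions are on mm9. The authors deposited these intensity values and a table of log2 values, which are the log2 processed signal shifted by 1 offset per array (-7.88 to -8.54) within 0.01 for 100% of 39399 probes. Its column medians were -3.56 to -3.89, the basis of the offsets is not given in the sources used here, and it served as an alternative.

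The log2 processed signal had the array's 75th percentile subtracted. Between 98 and 144 outlier spots of an array were removed, none was saturated (0 spots), and replicate spots were averaged (median log2 SD 0.0606 to 0.0707 over 399 probes). Of 39429 probes, 30 were left out. Names came from RefSeq (26038 by accession, 3199 by symbol, 930 by synonym), and 9232 probes kept the array's name. Where a gene had several probes (6394 genes) the one of highest mean signal was used. Genes well above background on at least 3 arrays (17858) entered a fit in limma (3.58.1, under R 4.3.3) whose terms were genotype and age as a factor, which pairs the arrays of an age, and p-values were adjusted by Benjamini and Hochberg (threshold 0.05; 2 residual and 2.114 prior degrees of freedom). P-values measure the spread between these mice, which differ in age. The script was tested on simulated data.

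A bound sets the brighter array against the higher of the dim probe's own signal and the lowest signal called above background on that array. Named were all members and their receptors, up to 4 tested genes per list with the greatest absolute difference, the 3 genes most like each tested member, and A4gnt. Ciita, Ifng, Gbp2, Igtp, Jchain, Cr2, Cd79b, Cd3e, Cd4, Lck, Camp, Elane, Csf3r and the list members given as not above background or among the gastric and epithelial markers were named as counted or defining members, after values were seen. Also named after values were seen were Irf7, Usp18, Ifit3, Bst2, Mx1, Mx2, Rsad2, Krt5, Krt14, Krt13, Trp63, Alb and Cpa1. The same holds for Adgre1, Csf1r, Itgam, Dcn, Lum, Thy1 and Fap. Members and lists were chosen with earlier results of these data known. Alternatives were quantile, median and normexp (offset 50) processing, the deposited table, other filters, the mean of a gene's probes, no age term, a variance trend, and leaving out each age's arrays.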

Additional observations from a re-analysis of the deposited data

How the results depend on the processing

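Of the tested ligands, Cxcl1, Cxcl10 and Cxcl14 kept their direction under all alternatives run, with log2 differences of 1.23 to 4.88, -1.84 to -0.52 and 1.32 to 1.998. Cxcl16 turned to 0.053 with median scaling, which shifted the median of all genes to 0.10, and to 0.32 without the 10-week arrays, and Cxcl12 turned to 0.36 with its other probe, an alternative chosen after seeing the data. Counts of genes past the genotype threshold, 0 in either direction, were 99 higher and 92 lower with normexp, 28 and 13 with a variance trend, 4 and 2 without the age term that pairs the arrays (no replicate block), and 0 and 1 with quantile normalization. They stayed at 0 without the arrays of any 1 age, where leaving out 1 array is the same as leaving out its age. Genes changed by age, 2, were 8 with normexp, 5 with a variance trend, and 0 with no filter and with all 6 arrays required above background. Requiring all 6 arrays left, past 2-fold, 1 ligand higher and 0 lower at 5 weeks, 1 and 1 at 10 weeks, and 1 higher at 50 weeks. Normexp left 0 lower at 5 and at 10 weeks, and the mean of a gene's probes 1 lower at 10 weeks. The cause of these shifts was not tested, except that the stricter filter tests fewer genes. Signals near 10 units limit Cxcl2, Cxcl9, Cxcl13 and Cxcl15, and background readings in wild type limit the fitted sizes of Cxcl1 and Cxcl5.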
